A study of Mus musculus with 15 samples.

Results

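The genes described here are 35 genes of cholesterol and fatty acid metabolism, chosen by name from the 46380 gene symbols that occur in all 15 count tables of a study of thyroid hormone action on parvalbumin (Pv) neurons of the mouse cortex. They comprise 17 enzymes of sterol synthesis, 5 genes of sterol sensing and of the SREBP system, 10 enzymes of fatty acid synthesis, elongation and desaturation, the lipogenic factor Thrsp, and 2 peroxisomal fatty acid transporters. All mice carried Pv-Cre and ROSA-tomato-lox, so that a nuclear fluorescent protein marked Pv neurons of adult mice, and RNA of sorted nuclei from individual cortices was sequenced. Ctrl (n = 4) were untreated Thra+/+ mice. Mut (n = 4) were untreated ThraAMI/+ littermates, in which Cre unlocks expression of TRalpha1L400R, a dominant negative form of the thyroid hormone receptor TRalpha1. PTU (n = 3) were Thra+/+ mice fed propylthiouracil, which blocks thyroid hormone production, for 2 weeks. PTU_TH (n = 4) were Thra+/+ mice given the same diet and an intraperitoneal injection of thyroid hormones 24 h before dissection. The receptor mutation is limited to cells in which Pv-Cre is or was active, whereas the diet and the injection act on the whole animal, and neither age in days nor hormone dose is given in the labels. The numbered titles refer to mice, so replicates were read as animals.

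Cholesterol is built from acetyl-CoA through mevalonate, squalene and lanosterol, and long-chain fatty acids from malonyl-CoA made by acetyl-CoA carboxylase. SREBP transcription factors, held in the endoplasmic reticulum by INSIG proteins and escorted to the Golgi by SCAP, raise the transcription of most enzymes of both pathways when membrane sterol is low. In liver, thyroid hormone is known to raise lipogenic genes such as Thrsp, Me1, Acaca and Fasn, and genes of sterol metabolism, in part through Srebf2. In the adult brain, cholesterol is made locally, mostly by glia, and neurons depend in part on glial supply. How these genes behave in Pv neurons when hormone is restored to hypothyroid mice (PTU_TH against PTU), and when the receptor is blocked in the neurons themselves (Mut against Ctrl), was the question asked of the tables.

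Libraries held 12957838 to 19141683 counts in the PTU and PTU_TH tables and 22333742 to 32571175 in those of Ctrl and Mut. Levels are given as CPM, the count divided by the library total and scaled to a common total, and differences as log2 fold changes ± standard error from edgeR's quasi-likelihood test, called at a Benjamini-Hochberg adjusted p under 0.05 over all genes tested. Thra, which carries the mutation, was at 57.8, 57.9, 48.2 and 62.8 CPM in the 4 Ctrl libraries and at 29.0, 29.5, 37.4 and 31.6 CPM in the 4 Mut libraries. Gene counts do not separate the mutant from the wild-type transcript. Hr, a textbook hormone target, was at 2.52 to 5.94 CPM in PTU and 43.1 to 49.5 CPM in PTU_TH, and at 12.5 to 15.4 CPM in Ctrl and 0.461 to 4.08 CPM in Mut, without overlap in either comparison. Pvalb was at 91.5 to 109 CPM in PTU and 120 to 145 CPM in PTU_TH (0.46 ± 0.12, edgeR adjusted p = 0.277), and at 110 to 136 CPM in Ctrl and 63.8 to 95.8 CPM in Mut (-0.63 ± 0.13, adjusted p = 0.078), without overlap in either comparison. Among other Pv neuron genes, Kcnc1, a channel of fast spiking, did not overlap after hormone (944.7 to 1154 against 1342 to 1587 CPM; edgeR adjusted p = 0.44), and the neuropeptide gene Tac1 was called in Mut (87.3 to 120 CPM in Ctrl against 184 to 358 CPM; 1.17 ± 0.19, edgeR adjusted p = 0.0243). In Mut against Ctrl, groups did not overlap for 4 of 10 Pv neuron genes, where 5.89% of all tested genes did so. Tac1 and Kcnc2 (1051 to 1589 CPM in Ctrl, 1699 to 2036 in Mut) were higher in Mut. Pvalb and Syt2 (311.1 to 528.5 CPM in Ctrl, 209.2 to 310.0 in Mut) were lower. Summed over marker lists, 10 Pv neuron genes reached 6221 to 9998 CPM per library, 10 excitatory neuron markers 308 to 473, 10 astrocyte markers 303 to 458 (all but 21.1 to 55.7 of it Slc4a4), 10 oligodendrocyte markers 78.1 to 220, 7 microglia markers 3.15 to 18.7, 6 oligodendrocyte precursor markers 4.10 to 13.8 and 7 endothelial and mural markers 1.29 to 32.6. Gfap, P2ry12, Gpr17 and C1ql1 had 0 counts in all libraries. In such sorted samples, fewer cells of a type and less RNA per cell cannot be told apart. Of the markers of astrocytes, a main source of brain sterols, 0 of 9 tested were called by edgeR in either comparison, with 1 at an unadjusted p under 0.05 in each and median log2 fold changes of -0.28 (hormone) and 0.06 (mutant). Markers of other interneurons summed to 137 to 162 CPM in Ctrl and 171 to 294 CPM in Mut, without overlap, and their part in the mutant values below was not tested. Libraries with and without counts of Y-linked genes occurred in every group.

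The way the counts were made bears on several of the 35 genes. Of 1265 protein-coding genes that lie wholly within the span of another counted gene, 1265 had 0 counts in all PTU and PTU_TH libraries (100%), against 20.7% of 20616 other protein-coding genes. In the Ctrl and Mut tables it was 1051 of 1087 (96.7%) against 15.1% of 20076. The tables thus behave as counts over whole gene spans, introns included and without regard to strand, in which a read that falls on 2 genes is given to neither. Mvd, mevalonate diphosphate decarboxylase (mm10 chr8:122433601-122443422, minus strand), is covered along 100% of its span by the gene Gm20388 and had 0 counts in all 15 libraries. It was therefore not measured, and nothing about its expression can be read from these tables. Fdps, farnesyl diphosphate synthase, is covered along 89.7% of its span and retained 6 to 16 counts per library in the PTU and PTU_TH tables. Lss is covered along 44.1%, Insig2 along 10.8% and Tm7sf2 along 9.58%. Further, 20.0% to 26.8% of the 75-base windows in exons of Acaca, Idi1, Fdps, Fdft1 and Me1 also occur in other genes, mostly predicted gene models, so these 5 values are less certain. Gfap, P2ry12, Gpr17 and C1ql1, the markers at 0, are likewise covered in full. All lipid genes but Mvd, 34 in number, passed the filter on low counts in every comparison.

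Per kilobase of span that no other gene covers, Scd2 was the highest of the 34 measured genes in all 4 groups, with 15.6 CPM per kb in Ctrl (lowest and highest library 12.9 and 17.1), 13.2 in Mut, 14.0 in PTU and 15.4 in PTU_TH. In PTU and PTU_TH its lowest library lay within the range of Tm7sf2. Scd2 encodes the stearoyl-CoA desaturase that predominates in brain. Tm7sf2, a sterol C14 reductase, and Sc5d, lathosterol oxidase, followed in every group with 6.55 and 5.23 CPM per kb in Ctrl, and their ranges there touched (5.95 to 7.57 and 4.10 to 6.10). Insig2 was the fourth in all groups, at 3.55 in Ctrl. From Hmgcs1 at 2.92 down to Fdft1 at 0.374 CPM per kb in Ctrl, 27 genes formed a gradual series in which neighbours overlapped between libraries. The lowest levels were those of Scd1 at 0.162, Me1 at 0.0464 and Acacb at 0.0345 CPM per kb in Ctrl. Scd1, the desaturase of liver and fat, was thus below Scd2 in every library, with 0.314 to 2.99 CPM against 119 to 293 CPM over spans of similar length. Thrsp, a small nuclear protein named for its hormone response in liver, was at 2.15 to 6.00 CPM over all libraries, or 0.719 CPM per kb in Ctrl. In nuclear RNA counted over introns, such levels reflect unspliced transcripts as well as mature ones. Exons make up 4403 of 5553 bases in Tm7sf2 but 3848 of 114583 in Me1. The order per kilobase of span therefore depends in part on gene structure, and an order per exonic length would differ.

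**Figure D1:**
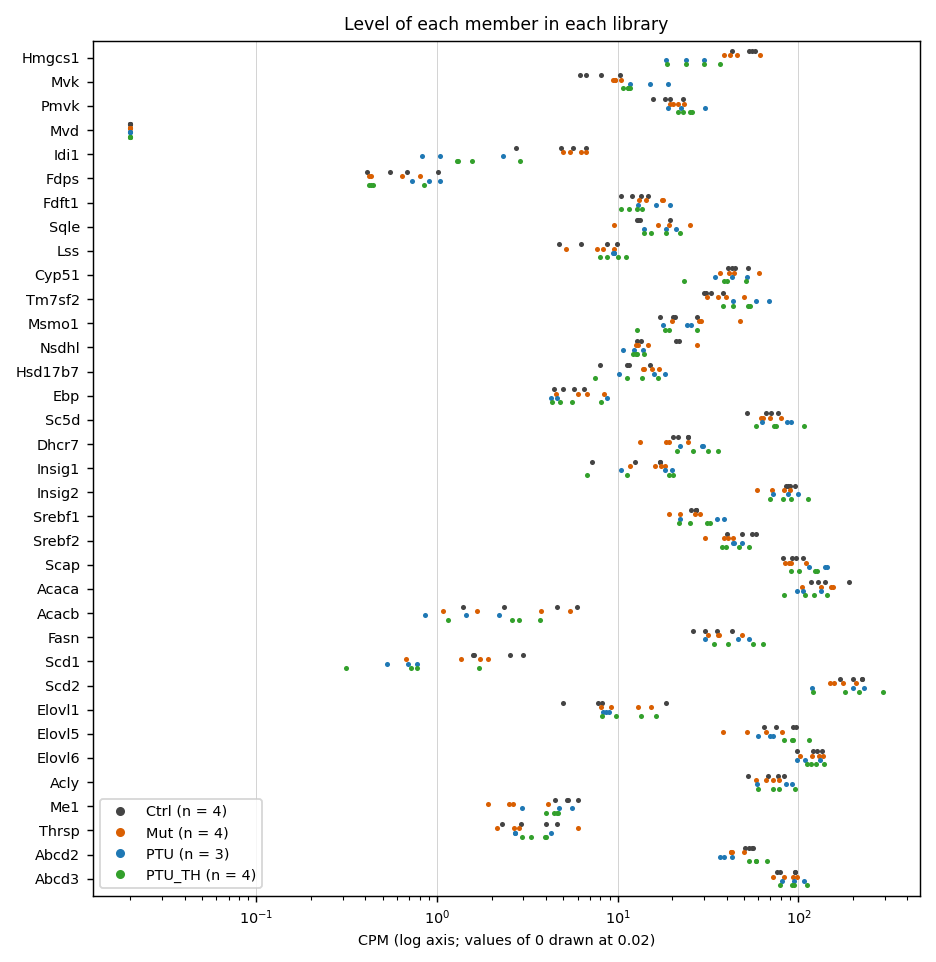
Level of each of the 35 genes in each library in CPM on a log axis, with 1 point per library and colour by group; values of 0 are drawn at 0.02. Scd2 reaches 119 to 293 CPM, Mvd is at 0 in all 15 libraries, and for most genes the 4 groups overlap.

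After hormone injection, most of these genes did not pass the test. In PTU_TH against PTU, 1 of the 34 tested genes was called, Abcd2, against 0.281% of all 15288 genes tested. The genes were chosen with earlier results of these data known, so setting these shares side by side is not a test. In total 43 genes were called, 39 of them higher, and 1126 had an unadjusted p under 0.05. Of the 34 genes, 3 had an unadjusted p under 0.05 (Abcd2, Elovl5 and Fdft1). The median log2 fold change of the 34 was 0.03, beside 0.00 over all genes (-0.003), and 20 of 34 were positive. Groups did not overlap for 3 genes, Abcd2, Elovl5 and Mvk, where 7.25% of all tested genes did so. The 95% interval of the change lay within 2-fold in both directions for 29 of the 34 genes, and for 73.5% of all tested genes. It lay within 1.5-fold for 14 of the 34, so changes beyond 1.5-fold remain possible for the others. The 5 with wider intervals were Acacb, Elovl1, Fdps, Idi1 and Scd1.

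In Mut against Ctrl, 0 of the 34 genes were called by edgeR, where 59 of 16949 genes (0.348%) were, 21 higher and 38 lower. No other tool or setting tried called any of the 34 in this comparison. An unadjusted p under 0.05 was found for 5 of them (Me1, Srebf2, Abcd2, Elovl5 and Msmo1), and for 1481 of all genes tested (8.74%). The median was -0.02, beside 0.01 over all genes, and 15 of 34 were positive. Groups did not overlap for Abcd2 and Me1, where 5.89% of all tested genes showed this. The interval lay within 2-fold for 28 genes, beside 68.3% of all tested genes, and within 1.5-fold for 15. It reached beyond 2-fold for Acacb, Elovl1, Fdps, Me1, Msmo1 and Scd1. At this depth and number of animals, simulated 2-fold changes in genes of at least 5 CPM were recovered in 69% of cases for PTU_TH against PTU and in 73% for Mut against Ctrl.

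**Figure D2:**
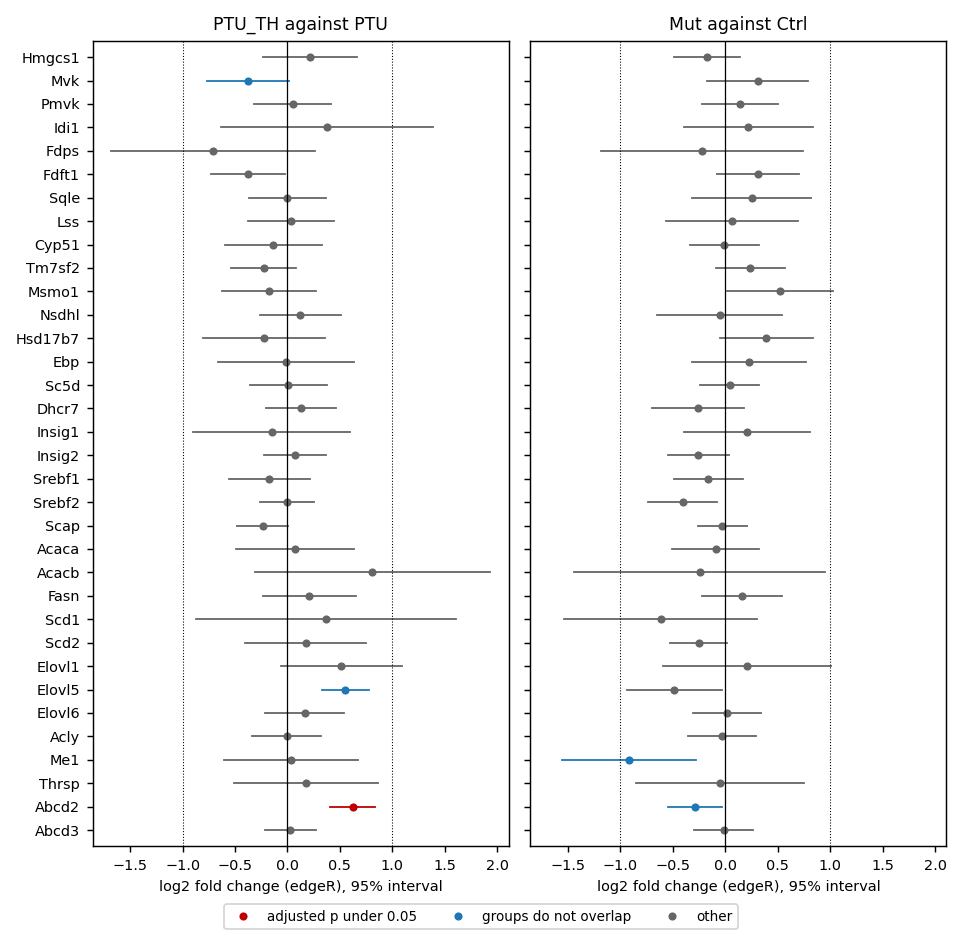
Log2 fold change (points) and 95% interval (lines) of the 34 tested genes in PTU_TH against PTU (left) and Mut against Ctrl (right), from edgeR; dotted lines mark 2-fold. Abcd2 is the only gene with an adjusted p under 0.05, on the left, and most intervals cross 0 within the dotted lines.

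The called gene was a peroxisomal transporter. Abcd2 (chr15:91145871-91191799, minus strand) encodes an ABC transporter that carries very long-chain acyl-CoA into peroxisomes. It was at 37.0, 38.5 and 42.6 CPM in the PTU libraries and at 58.3, 53.1, 58.0 and 66.5 CPM in PTU_TH. Every hormone-injected library lay above every PTU library. The log2 fold change was 0.62 ± 0.09 (edgeR, adjusted p = 0.0448), with means of 39.4 ± 2.93 (SD, n = 3) and 59.0 ± 5.58 (SD, n = 4) CPM. The call was lost when any of the 7 libraries was left out (adjusted p from 0.0956 without PTU replicate 5 to 0.274 without PTU replicate 6, log2 fold change 0.58 to 0.65) and with upper quartile scaling (adjusted p = 0.0643). The difference was 0.62 among libraries with Y-linked counts and 0.59 among those without. In untreated mice, Abcd2 was at 56.1, 55.4, 53.1 and 50.5 CPM in Ctrl and at 42.6, 43.0, 49.65 and 42.3 CPM in Mut. All Mut libraries lay below all Ctrl libraries, but the change of -0.29 ± 0.12 did not pass the test (edgeR, adjusted p = 0.502). Abcd3, which carries branched and long-chain acyl groups into peroxisomes, differed by 0.03 and -0.02 in the respective comparisons, and its intervals lay within -0.30 and 0.27.

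Among the fatty acid enzymes, Elovl5 had the smallest p after hormone. Elovl5 (chr9:77917364-77984519, plus strand) elongates polyunsaturated fatty acids. Its level was 59.5, 72.2 and 69.4 CPM in PTU and 92.2, 83.2, 93.1 and 114 CPM in PTU_TH, again without overlap. The log2 fold change was 0.55 ± 0.10, with an unadjusted p of 0.000384, but the edgeR adjusted p was 0.0895. DESeq2 (adjusted p = 0.000684), limma-voom (0.0248) and edgeR fits with Y-linked counts (0.00456) or a surrogate variable (8.53e-05) as a covariate placed it past the threshold, and the other 12 of 16 settings did not, with adjusted p-values up to 0.569 in a fit of all 4 groups and 0.158 to 0.434 with a library left out. Pvalb differed in the same directions as Abcd2 and Elovl5, and its part in their values was not tested. In Ctrl, Elovl5 was at 64.5, 74.8, 96.6 and 93.0 CPM and in Mut at 51.95, 66.0, 38.4 and 80.6 CPM. These groups overlapped, and the change of -0.48 ± 0.21 did not pass the test (edgeR, adjusted p = 0.529). It was -0.52 among libraries with Y-linked counts, 3 of Mut and 1 of Ctrl, and -0.07 among those without, 1 of Mut and 3 of Ctrl.

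Me1, the cytosolic malic enzyme that supplies NADPH for lipogenesis, was the gene with the largest difference in the mutant. Me1 (chr9:86581371-86695953, minus strand) was at 5.28, 5.21, 4.50 and 5.99 CPM in Ctrl and at 1.92, 2.64, 4.08 and 2.49 CPM in Mut. Every Mut library lay below every Ctrl library. The log2 fold change of -0.92 ± 0.29 had an unadjusted p of 0.00855 and did not pass the edgeR test (adjusted p = 0.308; 0.0567 to 0.647 over the other settings). PTU and PTU_TH libraries overlapped, at 5.57, 4.70 and 2.96 against 4.44, 4.60, 4.01 and 4.65 CPM, with a log2 fold change of 0.03 ± 0.28. Me1 is a low gene here, and 20.0% of its exon windows are shared with predicted genes.

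**Figure D3:**
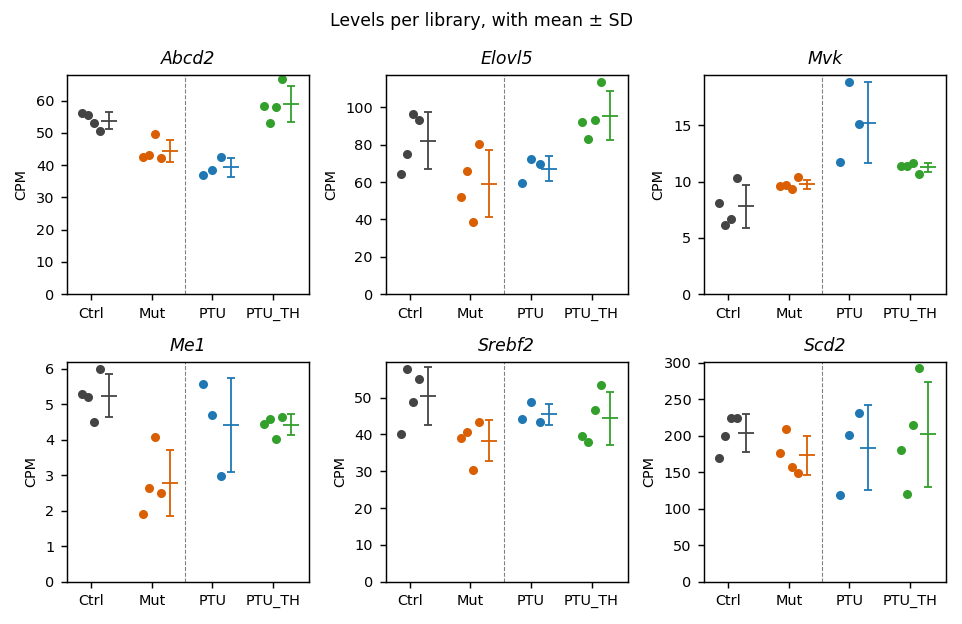
CPM per library (points) with mean ± SD (bars) for Abcd2, Elovl5, Mvk, Me1, Srebf2 and Scd2; the dashed line separates the Ctrl and Mut tables from the PTU and PTU_TH tables, which were made with different gene lists. Abcd2 lies at 37.0 to 42.6 CPM in PTU and 53.1 to 66.5 CPM in PTU_TH, whereas Scd2 overlaps between groups.

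The other enzymes of fatty acid synthesis did not pass the edgeR test in either comparison; Scd2 passed after hormone only with a surrogate variable (adjusted p = 0.025). Of the 10 fatty acid enzymes, 9 had a positive log2 fold change after hormone injection (median 0.19) and 3 in the mutant (median -0.17). Medians over all genes were -0.003 and 0.014. With 1 library left out, the median after hormone ranged from 0.145 (7 of 10 positive, without PTU_TH replicate 4) to 0.341 (8 of 10, without PTU replicate 5). In the mutant it ranged from -0.226 (3 of 10, without Ctrl replicate 1) to -0.033 (4 of 10, without Mut replicate 2). Acly, which makes cytosolic acetyl-CoA from citrate, differed by -0.01 ± 0.14 and -0.04 ± 0.15. Acaca, the carboxylase that commits acetyl-CoA to fatty acids, differed by 0.07 ± 0.25 after hormone and -0.09 ± 0.19 in the mutant, and its mitochondrial counterpart Acacb by 0.81 ± 0.49 and -0.24 ± 0.55. Acacb was at 0.857 to 2.20 CPM in PTU and 1.15 to 3.71 CPM in PTU_TH, so its wide interval covers both no change and more than 2-fold. Fasn, fatty acid synthase, was at 30.3, 46.3 and 53.0 CPM in PTU and at 41.0, 34.3, 56.0 and 63.5 CPM in PTU_TH (0.21 ± 0.20). These groups overlapped widely, as did those of Ctrl (26.0 to 43.1 CPM) and Mut (31.5 to 48.7 CPM; 0.16 ± 0.17). Scd2 ranged from 119 to 231 CPM in PTU and from 120 to 293 CPM in PTU_TH (0.17 ± 0.25), and from 170 to 224 CPM in Ctrl and 149 to 209 CPM in Mut (-0.25 ± 0.13). Scd1 differed by 0.37 ± 0.54 and -0.62 ± 0.42 at under 3 CPM. Elovl1, which elongates saturated very long-chain fatty acids, differed by 0.52 ± 0.26 and 0.21 ± 0.37. Elovl6, which makes stearate from palmitate, differed by 0.16 ± 0.17 and 0.01 ± 0.15. Thrsp was at 4.27, 2.69 and 2.70 CPM in PTU and at 3.29, 4.02, 3.94 and 2.95 CPM in PTU_TH, and from 2.29 to 4.58 CPM in Ctrl and 2.15 to 6.00 CPM in Mut. Both pairs of groups overlapped, with changes of 0.17 ± 0.30 (95% interval -0.51 to 0.86) and -0.05 ± 0.37 (-0.85 to 0.75).

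None of the 16 measured enzymes of sterol synthesis was called in either comparison under any setting tried, with 1 at an unadjusted edgeR p under 0.05 in each. In PTU_TH against PTU, 7 of the 16 were positive with a median of -0.01, and in Mut against Ctrl 11 of 16 with a median of 0.18, beside -0.003 and 0.01 over all genes. Mut replicate 2 stood apart, with a summed level of these enzymes of 448 CPM against 326 to 356 CPM in the other Mut libraries. Markers of other cells did not all go the same way in this library. It had the most Slc1a3, an astrocyte gene (19.2 against 3.42 to 6.70 CPM), and Slc17a7, an excitatory neuron gene (54.7 against 17.0 to 26.7 CPM). But it had the least of the astrocyte marker Slc4a4 (300.8 against 380.5 to 422.2 CPM). The same held for the excitatory neuron marker Camk2a (109.6 against 155.2 to 170.3 CPM). The part of such cells in these levels was not tested. Without Mut replicate 2, the median in the mutant was 0.12 with 10 of 16 positive, and with Y-linked counts as a covariate 0.06 with 9 of 16. In the mevalonate steps, Hmgcs1, HMG-CoA synthase, was at 18.4, 23.8 and 30.0 CPM in PTU and at 23.8, 18.8, 29.9 and 36.6 CPM in PTU_TH, which overlapped (0.21 ± 0.20), and differed by -0.17 ± 0.14 in the mutant. Mvk, mevalonate kinase, was at 11.7, 18.9 and 15.1 CPM in PTU and at 11.4, 11.4, 11.65 and 10.7 CPM in PTU_TH. The groups did not overlap, but the lowest PTU library lay just above the highest PTU_TH library, and the change of -0.38 ± 0.17 did not pass the edgeR test (adjusted p = 0.692). Pmvk differed by 0.05 ± 0.16 and 0.14 ± 0.17, and Idi1, isopentenyl diphosphate isomerase, by 0.38 ± 0.45 and 0.22 ± 0.28. Fdps differed by -0.71 ± 0.43 and -0.22 ± 0.44 on few counts.

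From squalene on, Fdft1, squalene synthase, was at 13.01, 16.2 and 19.4 CPM in PTU and at 13.7, 10.4, 11.6 and 12.8 CPM in PTU_TH (-0.38 ± 0.16, edgeR adjusted p = 0.645), with 1 PTU library inside the PTU_TH range, and differed by 0.31 ± 0.18 in the mutant. Sqle, squalene epoxidase, and Lss, lanosterol synthase, differed by 0.00 (-0.004 ± 0.162) and 0.04 ± 0.18 after hormone and by 0.25 ± 0.26 and 0.06 ± 0.29 in the mutant. Msmo1, methylsterol monooxygenase, was at 17.2, 20.3, 27.3 and 20.8 CPM in Ctrl and at 28.3, 47.5, 28.8 and 19.9 CPM in Mut. The groups overlapped through Mut replicate 4, and the change of 0.52 ± 0.23 did not pass the edgeR test (adjusted p = 0.556). Within libraries with Y-linked counts it was 0.78 and within those without -0.12, so it turned direction. The remaining enzymes of the lanosterol-to-cholesterol steps, Cyp51, Tm7sf2, Nsdhl, Hsd17b7, Ebp, Sc5d and Dhcr7, differed by -0.23 to 0.13 after hormone and by -0.26 to 0.39 in the mutant. Dhcr7, which makes cholesterol from 7-dehydrocholesterol, was at 22.0, 29.1 and 29.4 CPM in PTU and at 26.0, 21.4, 31.6 and 35.8 CPM in PTU_TH, and the groups overlapped.

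None of the 5 regulators was called in either comparison under any setting tried. Srebf2, the SREBP that chiefly drives sterol genes, was at 40.2, 57.9, 48.9 and 55.0 CPM in Ctrl and at 38.9, 40.7, 30.3 and 43.3 CPM in Mut. Of the 4 Ctrl libraries, 3 lay above all Mut libraries, and Ctrl replicate 1 lay within their range. The log2 fold change was -0.41 ± 0.15, with an unadjusted p of 0.0186 and an edgeR adjusted p of 0.404. After hormone injection it was -0.01 ± 0.11, with levels of 44.1, 48.8 and 43.4 CPM in PTU and 39.5, 37.9, 46.6 and 53.4 CPM in PTU_TH. Srebf1, the SREBP of lipogenesis, differed by -0.17 ± 0.17 and -0.16 ± 0.15, and Scap by -0.24 ± 0.11 and -0.03 ± 0.11. Insig2 differed by 0.07 ± 0.13 and -0.26 ± 0.13. Insig1, itself a textbook SREBP target, was at 10.4, 18.3 and 19.9 CPM in PTU and at 11.3, 6.74, 19.3 and 20.2 CPM in PTU_TH. Its spread within each group was larger than the difference between them (-0.15 ± 0.33), and in the mutant it differed by 0.21 ± 0.28.

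Upstream sequence was examined for 29 of the 35 genes, those with an entry among RefSeq promoters of the GRCm38.p6 build, over the 250 bases before each start. Abcd2, Fdft1, Fdps, Scd1, Scd2 and Sqle had none. The 6 motifs were searched on both strands. The thyroid receptor half-site AGGTCA was found upstream of 5 of the 29 genes (17.2%; Acly, Dhcr7, Elovl6, Hmgcs1 and Insig1), against 13.8% of 27025 genes in the table. An exact direct repeat of AGGTCA spaced by 4 bases was found in 0 against 0.0111%. With only 3 of the 27025 genes holding this exact repeat, 0 of 29 was nearly certain beforehand and says nothing about hormone response elements. The sterol response core TCACNCCAC occurred upstream of Hmgcs1 (3.45%) against 1.04%. The CCAAT box was found in 22 (75.9%) against 34.5%, the GC box GGGCGG in 18 (62.1%) against 32.9% and the E-box CACGTG in 4 (13.8%) against 6.05%. Where a gene had more than 1 entry, the entry nearest its annotated start was used for the 29 genes. For the whole table the first listed entry was used, so the paired shares were not made in the same way. A match is a string of letters, not a bound site. Shown here, 5′ to 3′ on the strand of the gene, are the 3 genes with an entry whose groups did not overlap and Hmgcs1 for its sterol core, with matches to any of the 6 motifs in capitals, those on the other strand shown as they read on this strand. The windows are chr9:77917115-77917364 on the plus strand for Elovl5, chr5:114444019-114444268 on the plus strand for Mvk, chr9:86695915-86696164 on the minus strand for Me1 and chr13:119690101-119690350 on the plus strand for Hmgcs1.
Elovl5: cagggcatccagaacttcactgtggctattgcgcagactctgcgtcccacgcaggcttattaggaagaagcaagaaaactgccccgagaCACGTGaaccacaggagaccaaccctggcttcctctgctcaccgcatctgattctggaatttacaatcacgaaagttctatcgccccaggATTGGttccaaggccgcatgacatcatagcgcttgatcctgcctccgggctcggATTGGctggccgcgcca
Mvk: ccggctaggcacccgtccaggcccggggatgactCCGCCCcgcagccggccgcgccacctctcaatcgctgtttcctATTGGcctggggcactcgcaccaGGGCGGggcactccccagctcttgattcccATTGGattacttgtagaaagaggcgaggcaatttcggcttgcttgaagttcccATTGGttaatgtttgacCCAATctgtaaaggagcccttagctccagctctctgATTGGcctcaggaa
Me1: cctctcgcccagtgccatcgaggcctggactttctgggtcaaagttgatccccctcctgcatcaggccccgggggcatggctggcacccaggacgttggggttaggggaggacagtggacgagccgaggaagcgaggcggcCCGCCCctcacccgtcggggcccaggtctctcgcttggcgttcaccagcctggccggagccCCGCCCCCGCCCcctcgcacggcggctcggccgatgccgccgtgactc
Hmgcs1: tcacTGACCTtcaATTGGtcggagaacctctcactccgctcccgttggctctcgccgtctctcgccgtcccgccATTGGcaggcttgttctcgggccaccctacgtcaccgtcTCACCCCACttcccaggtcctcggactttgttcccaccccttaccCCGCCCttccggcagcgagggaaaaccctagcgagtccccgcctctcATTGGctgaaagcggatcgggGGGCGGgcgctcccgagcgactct
Of the 6 motifs, Elovl5, higher in every hormone-injected library, holds an E-box and CCAAT boxes but no exact AGGTCA in this window. The exact matches in Me1 are GC boxes alone. Inexact forms of AGGTCA or of its repeat were not searched for, in Me1 or elsewhere. The Mvk window holds CCAAT and GC boxes. In Hmgcs1, the sterol core stands between CCAAT boxes, and an AGGTCA match lies near the far end of the window.

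The 2 comparisons share no library, and their values for the 34 genes can be set side by side. Signs were opposite for 21 of the 34 genes (61.8%), against 62.6% of the 14048 genes tested in both. Across the 34 genes, Pearson's r was -0.349 and Spearman's rho -0.478, against -0.369 and -0.348 across all genes. These are descriptions across genes, which share libraries and are not independent. The share and the correlation of the lipid genes were near those of the whole table. Abcd2 and Elovl5 lay together among genes with a positive value for hormone and a negative value for the mutant, and Mvk, Fdft1 and Msmo1 among those with the reverse signs. Me1 and Srebf2 had negative values in the mutant and values near 0 for hormone, and the difference between the contrasts was not tested.

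**Figure D4:**
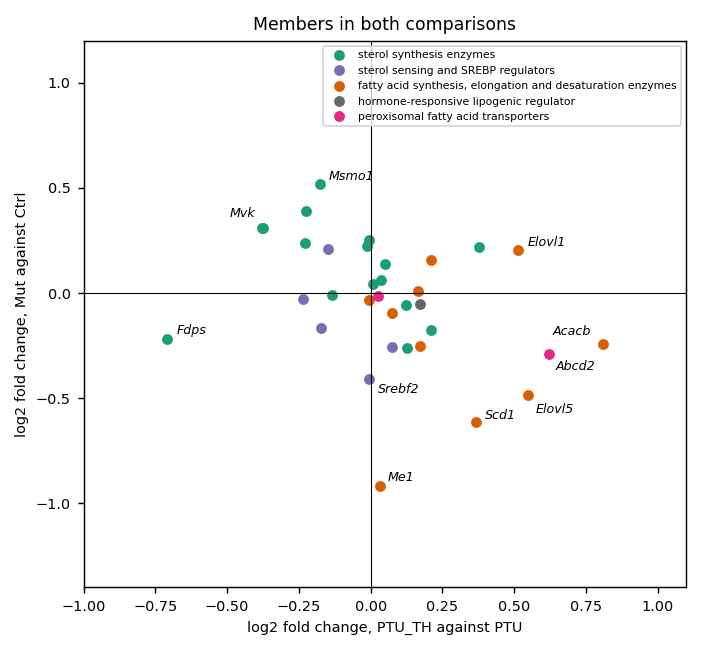
Log2 fold change in PTU_TH against PTU (x axis) and Mut against Ctrl (y axis) for the 34 tested genes, coloured by role; genes at the edges are named. Abcd2 and Elovl5 are to the lower right at 0.62 and -0.29 and at 0.55 and -0.48, while most points lie within 0.5 of the origin.

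The CPM values of these genes shifted together from library to library within groups. For 30 genes at 1 CPM or more in every library, the median deviation from the group mean on a log2 scale was -0.30 in PTU replicate 5 and 0.11 and 0.15 in replicates 6 and 7. In PTU_TH it was -0.05, -0.28, 0.06 and 0.25 in replicates 1 to 4. These shifts were larger than the median difference between the groups (0.03). They were taken from CPM without TMM scaling. The TMM factors were 0.933 in PTU replicate 5 and 0.897 in PTU_TH replicate 2, against 1.069 in PTU replicate 7 and PTU_TH replicate 4. How far other genes shifted alike was not tested. In the same 7 libraries, the share of counts in genes over 100 kb was 39.6% in PTU replicate 5 and 25.7% and 25.8% in replicates 6 and 7, and 34.1%, 40.7%, 28.4% and 24.9% in PTU_TH replicates 1 to 4. Among these 7, libraries with Y-linked counts had the lower shares of long genes and the higher levels of these lipid genes. With 7 libraries, the sex of the mouse and the share of long genes could not be told apart, and their part in the spread was not tested. Ctrl and Mut deviated less, from -0.16 in Ctrl replicate 1 to 0.19 in Mut replicate 2. Summed over the 35 genes, levels were 1435 ± 73.2 CPM in Ctrl, 1364 ± 86.3 in Mut (SD, n = 4 each), 1434 ± 179 in PTU (n = 3) and 1469 ± 221 in PTU_TH (n = 4). Within libraries with and without Y-linked counts, the median log2 ratio of the 34 genes was 0.03 and 0.06 for hormone and -0.11 and -0.09 for the mutant.

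**Figure D5:**
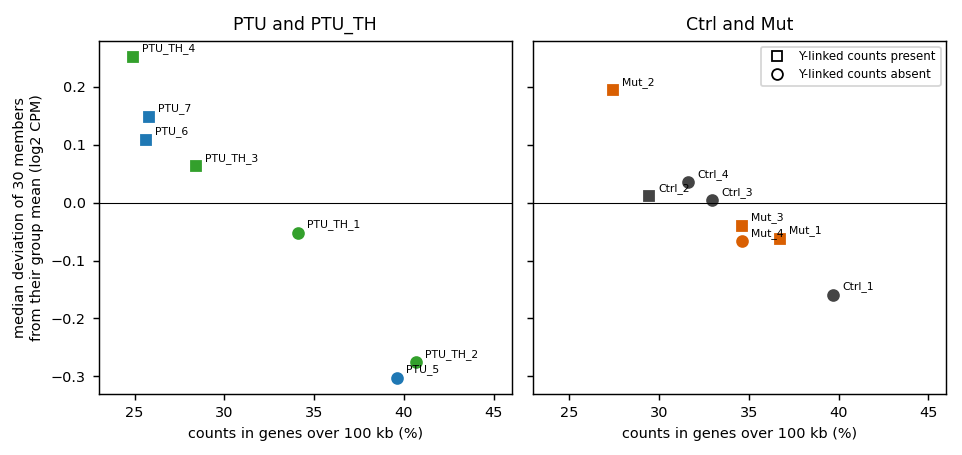
Median deviation of 30 lipid genes from their group mean (log2 CPM, y axis) against the percentage of counts in genes over 100 kb (x axis), 1 point per library, with squares for libraries with Y-linked counts. PTU replicate 5 and PTU_TH replicate 2, at -0.30 and -0.28, have the highest long-gene shares among the 7 libraries on the left.

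Of 90 further genes of lipid metabolism, 83 were tested in PTU_TH against PTU and 85 in Mut against Ctrl, and 0 were called by edgeR in either, with 10 and 7 at an unadjusted p under 0.05. DESeq2 called Acss2 in the former and Fads3 in the latter, and limma-voom called Hacd3 in the latter. In the former, edgeR with Y-linked counts as a covariate called 3 (Acsl6, Acss2 and Hacd3) and with a surrogate variable 10. Medians were -0.01 and -0.02. In the list of other sterol and isoprenoid genes, Fdxr (0.41 ± 0.20) and Acat1 (0.14 ± 0.10) had the smallest p after hormone. Neither is a step specific to sterol synthesis. Acat1 differed by 0.19 ± 0.11 in the mutant. Among genes of sterol uptake, export and turnover, Abcg1, a cholesterol exporter, differed by 0.32 ± 0.09 after hormone and Nr1h2 by 0.36 ± 0.18 in the mutant. Among regulators the smallest p after hormone were those of Nfyc (0.36 ± 0.20) and Gpam (0.19 ± 0.12), and in the mutant Ppard (-0.79 ± 0.29) and Lpin1 (-0.32 ± 0.16). Among other fatty acid genes they were Acss2, a cytosolic and nuclear acetyl-CoA synthetase (0.43 ± 0.11), and the desaturase-related Fads3 (-0.70 ± 0.21), and in the mutant Fads3 (0.90 ± 0.28) and Elovl7 (0.80 ± 0.26). Acadm, the medium-chain acyl-CoA dehydrogenase, differed by -0.34 ± 0.11 after hormone and 0.46 ± 0.15 in the mutant, and Acaa1b by 1.35 ± 0.51 and -0.51 ± 0.19. The edgeR adjusted p-values of these named genes ranged from 0.247 for Acss2 to 0.933 for Acat1 after hormone and from 0.285 for Fads3 to 0.713 for Acat1 in the mutant.

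PTU against Ctrl could be compared only across tables made with different gene lists, so diet and table set cannot be told apart, and 17% of 16496 genes were called, 722 higher and 2082 lower. Of the 34 genes, 7 were called: Abcd2, Hmgcs1, Idi1 and Scd1 lower and Mvk, Scap and Tm7sf2 higher in PTU, or 20.6%, a share near that of all genes. Hmgcs1 (-1.16 ± 0.17) and Idi1 (-1.87 ± 0.42) are covered along 34.6% and 4.65% of their spans by genes listed only in the PTU tables, so their counts cover different stretches in the 2 sets. Abcd2, with no overlapping gene in either set, differed by -0.49 ± 0.12 (edgeR, adjusted p = 0.0175). Without PTU replicate 6, 3 of the 34 genes were called and Abcd2 was not (adjusted p = 0.0845).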

How the data were processed

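RNA of sorted nuclei was amplified with an ultralow-input SMART-Seq v4 kit and sequenced from Nextera XT libraries as single 75-base reads, per the labels' protocols; neither kit marks strand. The authors deposited raw counts per gene, 1 table per library. Bowtie2 2.5.3, HTSeq and the builds mm10 and GRCm38 are named in the submitters' processing notes; the counting mode and annotation release were not given in the sources used here. Tables list 55341 genes for PTU and PTU_TH and 48321 for Ctrl and Mut. Gene spans and overlaps were taken from GENCODE M21.

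Each comparison used its own libraries in edgeR 4.0.16 (R 4.3.3) with TMM scaling, filterByExpr (minimum count 10), a robust quasi-likelihood fit and adjustment after Benjamini and Hochberg. Simulated data held 200 changed genes of at least 5 CPM, with each gene drawn independently. They gave 12 false among 179 calls for PTU_TH against PTU, 5 of 178 for Mut against Ctrl and 6 of 183 for PTU against Ctrl. Alternatives were DESeq2 1.42.0, limma-voom (limma 3.58.1), a surrogate variable (sva 3.50.0), other scalings and filters, 1 fit of all groups, Y-linked counts (summed over 50 CPM) as a covariate, leaving out each library in turn, and blocking on replicate number. The 35 genes and all lists were chosen with earlier results of these data known. All 35 are given; of the other lipid lists, called genes are named, or the 2 with the smallest p; a few of the latter are not reported here. Reads carry no molecular identifiers. Counts of 0 allow up to 3 counts, or 0.0921 to 0.232 CPM, for counting error only.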

Additional observations from a re-analysis of the deposited data

Results flagged for a closer look

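Within groups of 4 libraries, 5 of 102 combinations of gene and group had a library set apart from the others by more than 0.829 of the group's range; chance gives about 1 in 20. Fdps was at 0.849 CPM in PTU_TH replicate 3 and at 0.418 to 0.443 CPM in the other 3 libraries, on 6 to 11 counts. Sqle was at 19.4 CPM in Ctrl replicate 2, against 12.8 to 13.3 CPM. Nsdhl was at 27.45 CPM in Mut replicate 2, against 12.6 to 14.7 CPM, and this library also had the highest median of the 30 lipid genes in its group. Srebf1 was at 25.4 CPM in Ctrl replicate 1, against 27.1 to 27.2 CPM, a small gap in a narrow group. Abcd2 was at 49.65 CPM in Mut replicate 3, against 42.3 to 43.0 CPM, the library nearest to the Ctrl range.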

How the results depend on the processing

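The medians of the 34 tested genes moved by less than the spread between libraries under every setting tried, and no result changed direction past a threshold. For PTU_TH against PTU, the 43 calls became 203 with DESeq2, 171 with limma-voom, 335 with Y-linked counts as a covariate, 1059 with a surrogate variable and 5 (without PTU_TH replicate 1) to 29 when each library was left out, a shift of over 1.5 times for each but PTU_TH replicate 4. Among the lipid genes, 1 call became 0 with upper quartile scaling, 2 with DESeq2, limma-voom or Y-linked counts (Abcd2 and Elovl5), 3 with a surrogate variable (also Scd2, adjusted p = 0.025) and 0 without any 1 library. For Mut against Ctrl, the 59 calls became 90 with a 1 CPM filter, 403 with DESeq2, 331 with limma-voom, 196 with all 4 groups in 1 fit, 31 with Y-linked counts, 177 with a surrogate variable and 11 (without Ctrl replicate 3 or Mut replicate 1) to 103 (without Mut replicate 2), a shift of over 1.5 times for each library but Ctrl replicate 1; 0 lipid genes were called throughout. For PTU against Ctrl, the 2804 calls became 5653 with limma-voom and 2061 to 4283 with a library left out (the highest without PTU replicate 5), and the 7 lipid genes 3 (without PTU replicate 6) to 7, with 4 without PTU replicate 7, 9 with limma-voom (also Acacb and Elovl5) and 8 with a surrogate variable (also Scd2). The cause of these shifts was not tested. Over 1696 values of single lipid genes, 1662 kept their side of the threshold and their sign or lay within 1 standard error, 8 gained and 19 lost a call, and 7 moved.

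Ctrl and Mut share replicate numbers, but deviations of same-numbered libraries correlated at 0.116, 0.202, -0.021 and 0.085, so the numbers were not taken as a pairing. With a replicate block, 82 genes and 0 lipid genes were called, and the lipid median was -0.02. Mut replicates 1 and 2 correlated best with the Ctrl library of their number, and Mut replicates 3 and 4 did not. No paired analysis was possible for the other comparisons because PTU shares no replicate number with PTU_TH or Ctrl. Low counts limit the precision for Fdps, Scd1, Acacb, Idi1, Me1 and Thrsp.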
